A study of Rattus with 27 samples.

Results

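The genes described here encode the killing machinery of cytotoxic lymphocytes, the natural killer cells and CD8 T cells that destroy infected or altered cells. They were taken from a list of 10 symbols: the effectors Prf1, Gzma, Gzmb, Gzmk and Nkg7, the receptors Ncr1, Klrd1 and Klrk1, and the transcription factors Eomes and Tbx21. Of these 10 genes, 9 had a probe annotated to a single gene, 1 such probe each, and they were part of 14506 genes tested in all. Eomes, a T-box transcription factor of natural killer and effector T cells, was represented only by a probe that the platform annotation shares with Golga4, so it has no value of its own. That shared probe read 6.06 to 6.48 in white blood cells, 6.43 to 6.85 in spleen and 5.84 to 6.17 in brain, on a log2 scale, and it is not used further.

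The samples came from 9 Sprague Dawley rats killed 6 h after surgery, with 3 rats in each of 3 groups. Vehicle-labelled and model-labelled rats both underwent middle cerebral artery occlusion (MCAO), a model of ischaemic stroke, while sham rats received anaesthesia and vessel separation only. Per the protocol, 1 of these groups was a vehicle control and the other received 25 mg/kg of YJ. The sample titles say vehicle and model instead, no label joins the names, and the group that received YJ is therefore not settled here. Each rat gave white blood cells separated from whole blood, a spleen homogenate and a brain homogenate, 27 arrays in all. The age and sex of the rats are not given in the sources used here. Neither homogenate separates cell types, and a brain homogenate contains whatever blood remained in its vessels.

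Cytotoxic lymphocytes carry granules loaded with perforin, which opens the membrane of a target cell, and with granzymes, proteases that enter through it and start cell death. Natural killer cells decide whether to kill by weighing activating against inhibitory receptors, while CD8 T cells depend on their antigen receptor, and both lineages use T-box transcription factors to switch on the effector genes. Blood and the red pulp of the spleen hold circulating natural killer cells, and the healthy brain parenchyma holds very few.

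Values are log2 intensities, so a difference of 1 is a doubling, and a level cannot be set against that of another gene because each probe binds differently. The arrays had medians of 4.96 to 5.31 over probes, and replicate arrays of a group correlated at r = 0.968 or higher across the genes tested. The lowest and highest values in the deposited table were 1.53 and 13.49. In white blood cells all 9 genes lay above the 40th percentile of mean intensity over genes. In spleen 8 did, the exception being Ncr1, and in brain only Gzmb did, so brain values of the other 8 were among the dimmer ones on the array. Differences from brain are therefore set against dim probes, and they are given without a fold and are not ranked between genes.

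The level of these genes followed tissue. In sham rats all 9 were higher in white blood cells than in brain, all 9 were higher in spleen than in brain, and all 9 were higher in white blood cells than in spleen (limma, adjusted p under 0.05). Over all genes tested, 31.1% passed as higher in white blood cells than in brain, 27.4% as higher in spleen than in brain and 19.7% as higher in white blood cells than in spleen. The median difference of the 9 genes was 4.27 for white blood cells minus brain, against 0.12 over all genes. It was 2.24 for spleen minus brain, against 0.02 over all genes, and 1.44 for white blood cells minus spleen, against 0.12 over all genes. In bulk RNA a smaller share of cytotoxic cells and less RNA of these genes per cell cannot be told apart.

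**Figure D1:**
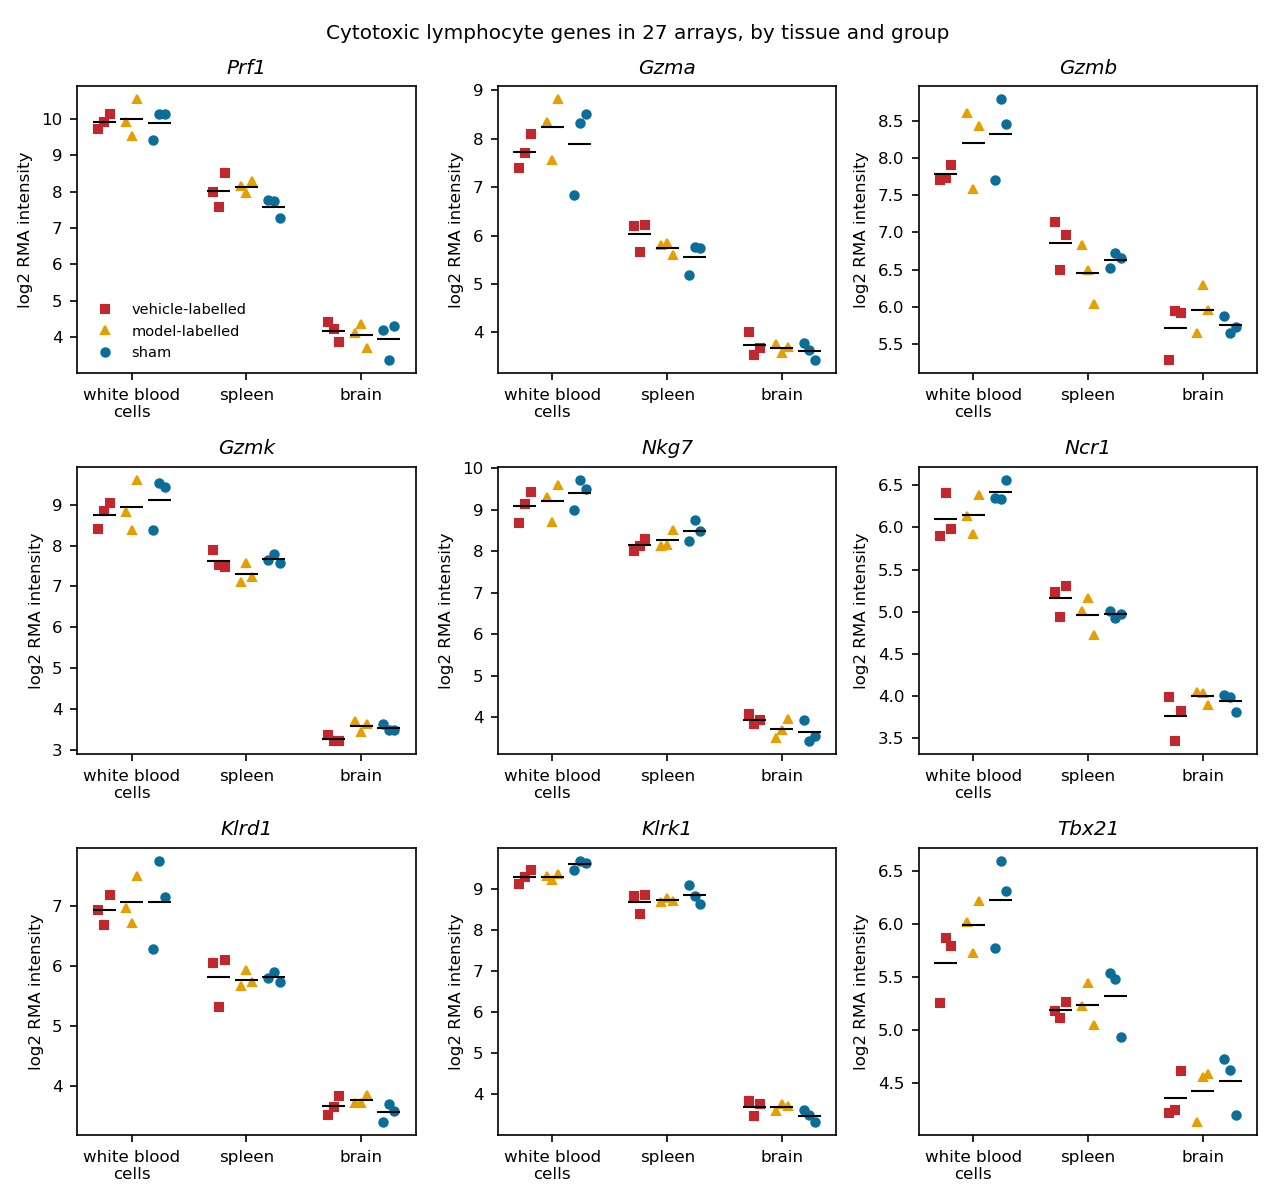
Log2 intensity of the 9 genes on each of the 27 arrays, by tissue and by group (vehicle-labelled, model-labelled, sham), each point being 1 array. For every gene the 9 white blood cell arrays lie above the 9 brain arrays, and for Gzmb the spleen and brain arrays overlap.

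The effectors come first. Prf1 (probe 10830025) encodes perforin, the protein that forms the pore. White blood cells read 9.71, 9.91 and 10.13 in vehicle-labelled rats, with 9.91, 9.53 and 10.54 in model-labelled rats and 9.41, 10.12 and 10.12 in sham rats. The groups overlapped, the highest array being from a model-labelled rat and the lowest from a sham rat. In spleen it read 7.98, 7.58 and 8.51 in vehicle-labelled rats, with 8.15, 7.95 and 8.29 in model-labelled rats and 7.76, 7.73 and 7.28 in sham rats. There every model-labelled array was above every sham array, while the vehicle-labelled arrays overlapped both. The share of all genes whose groups separate in this way within a tissue was not counted, here or for the genes below. The model-labelled minus sham difference in spleen was 0.54 ± 0.21 (SE; limma, adjusted p = 0.463, 95% interval 0.08 to 1.00) and did not pass the test. The 9 brain arrays ran from 3.38 through a median of 4.19 to 4.42. Sham white blood cells exceeded sham brain by 5.92 ± 0.28 (SE; limma, adjusted p = 2.2e-15), and sham spleen by 2.29 ± 0.28, 4.90-fold (limma, adjusted p = 3.61e-07).

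Gzma (probe 10821370) encodes granzyme A, a tryptase of the granules. Its white blood cell values were 7.40, 7.70 and 8.09 in vehicle-labelled rats, with 8.35, 7.56 and 8.82 in model-labelled rats and 6.83, 8.32 and 8.52 in sham rats. One sham array, from rat 3, lay far below the other sham arrays and below all other white blood cell arrays. In spleen it read 6.20, 5.67 and 6.21 in vehicle-labelled rats, with 5.80, 5.85 and 5.60 in model-labelled rats and 5.19, 5.77 and 5.74 in sham rats. A pair of vehicle-labelled spleens lay above all others and the third among the sham values. The vehicle-labelled minus sham difference in spleen was 0.46 ± 0.19 (SE; limma, adjusted p = 0.48, 95% interval 0.05 to 0.87) and did not pass. Brain arrays ran from 3.43 through 3.68 to 4.01. The step between white blood cells and spleen in sham rats was the widest of the 9 genes, at 2.32 ± 0.32 or 5.00-fold (limma, adjusted p = 2.67e-06).

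Gzmb (probe 10784065) encodes granzyme B, the protease that cleaves caspases in the target cell. White blood cells read 7.71, 7.73 and 7.91 in vehicle-labelled rats, with 8.61, 7.59 and 8.43 in model-labelled rats and 7.71, 8.80 and 8.47 in sham rats. The vehicle-labelled arrays sat close together at the low end, beside 1 model-labelled and 1 sham array at a like level. The vehicle-labelled minus sham difference was -0.54 ± 0.27 (SE; limma, adjusted p = 0.409, 95% interval -1.12 to 0.04). Spleens read 7.14, 6.49 and 6.96 in vehicle-labelled rats, with 6.83, 6.49 and 6.03 in model-labelled rats and 6.52, 6.72 and 6.65 in sham rats, with all groups overlapping. Gzmb was the 1 gene of the 9 whose spleen and brain arrays overlapped, the brain arrays running from 5.28 through 5.87 to 6.29. The sham spleen minus sham brain difference was 0.88 ± 0.27 (SE; limma, adjusted p = 0.00671), and the same difference in model-labelled rats, 0.49 ± 0.27, did not pass (limma, adjusted p = 0.134). Without the spleen array of model-labelled rat 3 it was 0.70 and passed (limma, adjusted p = 0.0483).

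Gzmk (probe 10821377) encodes granzyme K, a further tryptase, and its gene is the direct neighbour of Gzma in the GRCr8 annotation, with 0 protein-coding genes between them. White blood cells read 8.40, 8.84 and 9.04 in vehicle-labelled rats, with 8.82, 8.38 and 9.61 in model-labelled rats and 8.38, 9.54 and 9.45 in sham rats. All groups overlapped, and the lowest arrays were a model-labelled and a sham array of equal value. Spleens read 7.89, 7.52 and 7.47 in vehicle-labelled rats, with 7.12, 7.57 and 7.24 in model-labelled rats and 7.66, 7.80 and 7.57 in sham rats. A pair of model-labelled spleens lay below all others and the third equalled the lowest sham spleen. The model-labelled minus sham difference in spleen was -0.37 ± 0.16 (SE; limma, adjusted p = 0.497, 95% interval -0.71 to -0.03) and did not pass. In brain, where the 9 arrays ran from 3.21 through 3.49 to 3.69, every vehicle-labelled array was below every other array. Such separations were not counted over all genes. The vehicle-labelled values there were 3.35, 3.22 and 3.21, against 3.69, 3.44 and 3.63 in model-labelled and 3.63, 3.49 and 3.49 in sham brains, and neither difference passed (-0.33 and -0.28; limma, adjusted p = 0.255 and 0.475).

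Nkg7 (probe 10706326) encodes a granule membrane protein that takes part in granule release. Its white blood cell values were 8.68, 9.14 and 9.43 in vehicle-labelled rats, with 9.32, 8.72 and 9.59 in model-labelled rats and 9.0, 9.72 and 9.51 in sham rats, with every pair of groups overlapping. In spleen it read 8.02, 8.12 and 8.30 in vehicle-labelled rats, with 8.13, 8.15 and 8.52 in model-labelled rats and 8.26, 8.76 and 8.48 in sham rats. The sham spleens were at the upper end, although the lowest of them fell within the vehicle-labelled range. The vehicle-labelled minus sham difference was -0.35 ± 0.16 in spleen (SE; limma, adjusted p = 0.525, 95% interval -0.70 to -0.01). Brain arrays ran from 3.43 through 3.83 to 4.07. The highest spleen value, from sham rat 4, was above the lowest white blood cell values, so those tissues overlapped when rats were pooled. Within sham rats white blood cells were still 0.91 ± 0.22 above spleen (SE; limma, adjusted p = 0.00179).

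Of the 3 receptors, Ncr1 (probe 10718924) encodes NKp46, an activating receptor that marks natural killer cells across mammals. White blood cells read 5.90, 6.41 and 5.98 in vehicle-labelled rats, with 6.14, 5.92 and 6.38 in model-labelled rats and 6.35, 6.33 and 6.56 in sham rats. Sham arrays were all at the upper end, but 1 vehicle-labelled and 1 model-labelled array fell among them. The differences from sham were -0.32 ± 0.16 for vehicle-labelled and -0.27 ± 0.16 for model-labelled rats (SE), and neither passed (limma, adjusted p = 0.407 and 0.852). Spleens read 5.23, 4.94 and 5.31 in vehicle-labelled rats, with 5.01, 5.16 and 4.72 in model-labelled rats and 5.01, 4.93 and 4.97 in sham rats, which overlapped. Brain arrays ran from 3.47 through 3.99 to 4.05. Sham white blood cells exceeded sham spleen by 1.44 ± 0.15 (SE; limma, adjusted p = 5.56e-08).

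Klrd1 (probe 10859164) encodes CD94, the partner chain with which NKG2 receptors form their heterodimers. White blood cells read 6.94, 6.69 and 7.18 in vehicle-labelled rats, with 6.97, 6.72 and 7.50 in model-labelled rats and 6.28, 7.75 and 7.16 in sham rats. The highest and the lowest of the 9 arrays were both sham arrays. The model-labelled and sham means were equal at 7.06, with a 95% interval of -0.64 to 0.64 for their difference. Spleens read 6.06, 5.32 and 6.10 in vehicle-labelled rats, with 5.67, 5.93 and 5.73 in model-labelled rats and 5.81, 5.90 and 5.74 in sham rats, and the vehicle-labelled spleens held both extremes. Brain arrays ran from 3.41 through 3.71 to 3.86, and sham white blood cells were 3.49 ± 0.25 above sham brain (SE; limma, adjusted p = 1.15e-11). The model-labelled brains, from 3.72 to 3.86, lay just above the sham brains, from 3.41 to 3.71. That difference, 0.20 ± 0.12, did not pass (SE; limma, adjusted p = 0.501).

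Klrk1 (probe 10866041) encodes NKG2D, an activating receptor for stress-induced ligands, and it directly neighbours Klrd1 in the GRCr8 annotation. White blood cells read 9.13, 9.28 and 9.47 in vehicle-labelled rats, with 9.31, 9.22 and 9.37 in model-labelled rats and 9.47, 9.68 and 9.64 in sham rats. All sham arrays were above all model-labelled arrays, and the highest vehicle-labelled array equalled the lowest sham array. How many of all genes separate sham from model-labelled arrays in this way was not counted. The differences from sham were -0.30 ± 0.12 for vehicle-labelled rats (SE; limma, adjusted p = 0.291, 95% interval -0.56 to -0.04) and -0.30 ± 0.12 for model-labelled rats (SE; limma, adjusted p = 0.774, 95% interval -0.56 to -0.04). Neither passed the test over all genes. Its arrays varied least within groups of the 9 genes in white blood cells, with a residual SD of 0.125. Spleens read 8.84, 8.38 and 8.85 in vehicle-labelled rats, with 8.68, 8.78 and 8.70 in model-labelled rats and 9.10, 8.84 and 8.63 in sham rats, with all groups overlapping. Brain arrays ran from 3.32 through 3.60 to 3.84, and the sham white blood cell minus brain difference was 6.13 ± 0.14 (SE; limma, adjusted p = 8.37e-21).

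Tbx21 (probe 10746628) encodes T-bet, the T-box factor that drives effector programmes in natural killer and T cells. Its white blood cell values were 5.25, 5.86 and 5.79 in vehicle-labelled rats, with 6.02, 5.72 and 6.21 in model-labelled rats and 5.77, 6.59 and 6.31 in sham rats. Vehicle-labelled arrays lay at the low end and a pair of sham arrays at the high end, with sham rat 3 among the low values. The vehicle-labelled minus sham difference was the most negative of the 9 genes at -0.59 ± 0.21 (SE; limma, adjusted p = 0.233, 95% interval -1.05 to -0.13) and did not pass. Spleens read 5.18, 5.11 and 5.26 in vehicle-labelled rats, with 5.22, 5.44 and 5.04 in model-labelled rats and 5.53, 5.48 and 4.93 in sham rats, which overlapped. Brain arrays ran from 4.13 through 4.55 to 4.72. The white blood cell minus brain difference in sham rats was 1.71 ± 0.21 (SE; limma, adjusted p = 1.45e-07), and the white blood cell and spleen arrays overlapped over all rats.

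**Figure D2:**
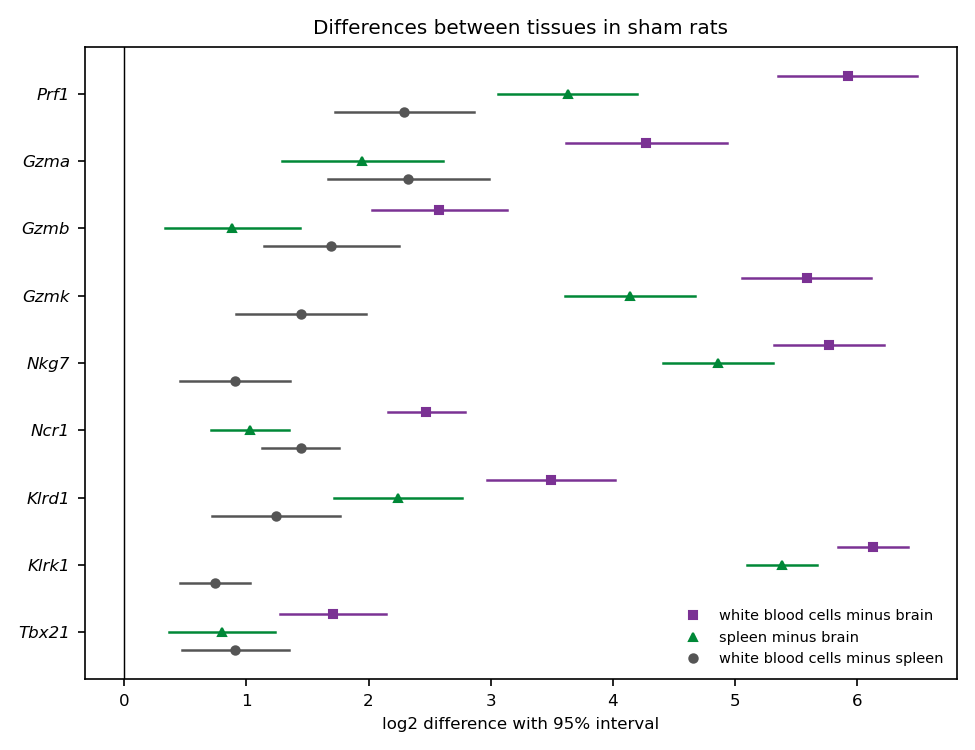
Differences between tissues in sham rats for the 9 genes, in log2 units with 95% intervals, 3 arrays a tissue. Every interval lies above 0, with white blood cells minus spleen from 0.74 for Klrk1 to 2.32 for Gzma.

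The order of tissues held beyond the sham group. In vehicle-labelled rats 9 of the 9 genes passed as higher in white blood cells than in brain (26.4% of all genes), 9 as higher in spleen than in brain (28.5%) and 8 as higher in white blood cells than in spleen (13.8%). The gene that did not pass was Tbx21, with 0.45 ± 0.21 (SE; limma, adjusted p = 0.118). Without the white blood cell array of vehicle-labelled rat 2 it was 0.64 and passed (limma, adjusted p = 0.0351), and without the spleen array of vehicle-labelled rat 4 Gzmb was 0.73 and did not pass (limma, adjusted p = 0.063). In model-labelled rats the same counts were 9 (25.7%), 8 (29.7%) and 9 (11.6%), Gzmb being the exception in spleen against brain. Pooling the groups, the lowest white blood cell array was above the highest brain array for 9 of 9 genes, a separation found for 19.2% of all genes. The lowest spleen array was above the highest brain array for 8 of 9 genes (19.1% of all genes), and the lowest white blood cell array above the highest spleen array for 7 of 9 genes (8.38% of all genes).

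Taking each rat by itself, its white blood cells exceeded its spleen for every one of the 9 genes in 9 of 9 rats, if the numbers in the titles link the tissues of a rat. Prf1 differed by 1.58 to 2.84, Gzma by 1.2 to 3.22, Gzmb by 0.57 to 2.40 and Gzmk by 0.51 to 2.37. For the receptors the range over rats was 0.67 to 1.66 for Ncr1, 0.47 to 1.85 for Klrd1 and 0.29 to 1.01 for Klrk1. Nkg7 differed by 0.57 to 1.19 and Tbx21 by 0.07 to 1.38. Vehicle-labelled rat 2 had the narrowest difference for Gzma, Gzmb, Gzmk, Klrk1 and Tbx21, and was level with vehicle-labelled rat 5 as the narrowest for Ncr1.

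Other genes of the cytotoxic programme were arranged over tissues in a like way. Of 95 listed genes in 4 groups, 84 were measured, and in sham rats 77 of them were higher and 3 lower in white blood cells than in brain (31.1% and 28% of all genes). Against spleen, 54 were higher and 7 lower in white blood cells (19.7% and 19.3% of all genes), and the median difference was 0.74, against 0.12 over all genes. Among granule and release genes 10 of 16 were higher and 2 lower, including Stx11, a syntaxin needed for granule fusion (3.38 ± 0.21), and Unc13d, which primes granules for release (2.14 ± 0.19). Among receptors and adaptors 19 of 29 were higher and 2 lower, including Cd226, the activating receptor DNAM-1 (3.66 ± 0.17), and Klrb1a, an NKR-P1 receptor of rat natural killer cells (1.68 ± 0.20).

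Cytokine and cytokine receptor genes gave 12 of 21 higher and 2 lower, with the chemokine Ccl5 at 1.83 ± 0.20 and the fractalkine receptor Cx3cr1 at 2.64 ± 0.30. Transcription factors gave 13 of 18 higher and 1 lower, with Runx3, a factor of cytotoxic lineages, at 1.52 ± 0.17. The 7 genes that were lower in white blood cells than in spleen were Ctsc, Tnfsf10, Fcgr3a, Cd7, Xcl1, Il18 and Irf8, several of which are also expressed by macrophages and dendritic cells. Among them the death ligand Tnfsf10 stood at -2.30 ± 0.26 and the macrophage cytokine Il18 at -2.68 ± 0.27.

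Markers of other cell types moved between these tissues too. In sham rats 11 of 14 T cell markers passed as higher in white blood cells than in spleen, with a median of 1.18, while 6 of 9 B cell markers, 9 of 14 neutrophil markers and 10 of 11 erythroid markers passed as lower, with medians of -0.89, -1.77 and -2.77. Monocyte and macrophage markers gave 5 of 11 higher and 3 lower, and platelet markers 4 of 4 higher. Against brain, T cell markers were higher in white blood cells for 14 of 14 genes and B cell markers for 9 of 9. Their part in the tissue differences of the 9 cytotoxic genes was not tested.

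Within a tissue, none of the 9 genes differed between groups at an adjusted p under 0.05. The count in white blood cells was 0 of 9 for vehicle-labelled minus sham (limma; 2.01% of all genes were called), with 2 genes, Tbx21 and Klrk1, at an unadjusted p under 0.05 (13.4% of all genes). For model-labelled minus sham it was 0 of 9 (0% of all genes called), with 1 gene, Klrk1, at an unadjusted p under 0.05 (6.07% of all genes). For vehicle-labelled minus model-labelled it was 0 of 9 (1.56% of all genes called), with 0 genes at an unadjusted p under 0.05 (10.9% of all genes). The median difference of the 9 genes was -0.32 for vehicle-labelled minus sham, with 8 of 9 below 0, against -0.06 over all genes. It was -0.19 for model-labelled minus sham, with 6 of 9 below 0, against -0.04, and -0.13 for vehicle-labelled minus model-labelled, with 9 of 9 below 0, against -0.02. These comparisons share arrays, and the 9 genes varied together across arrays, as described below for white blood cells, so the number of negative signs carries no test.

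The intervals give the size of difference that these arrays leave possible. For vehicle-labelled minus sham in white blood cells they were widest for Gzma, from -0.99 to 0.67 around a difference of -0.16, and narrowest for Klrk1. For Prf1 the interval was -0.48 to 0.55 around 0.03. Differences of the size seen between white blood cells and spleen for Prf1 and Gzma lie outside their intervals.

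**Figure D3:**
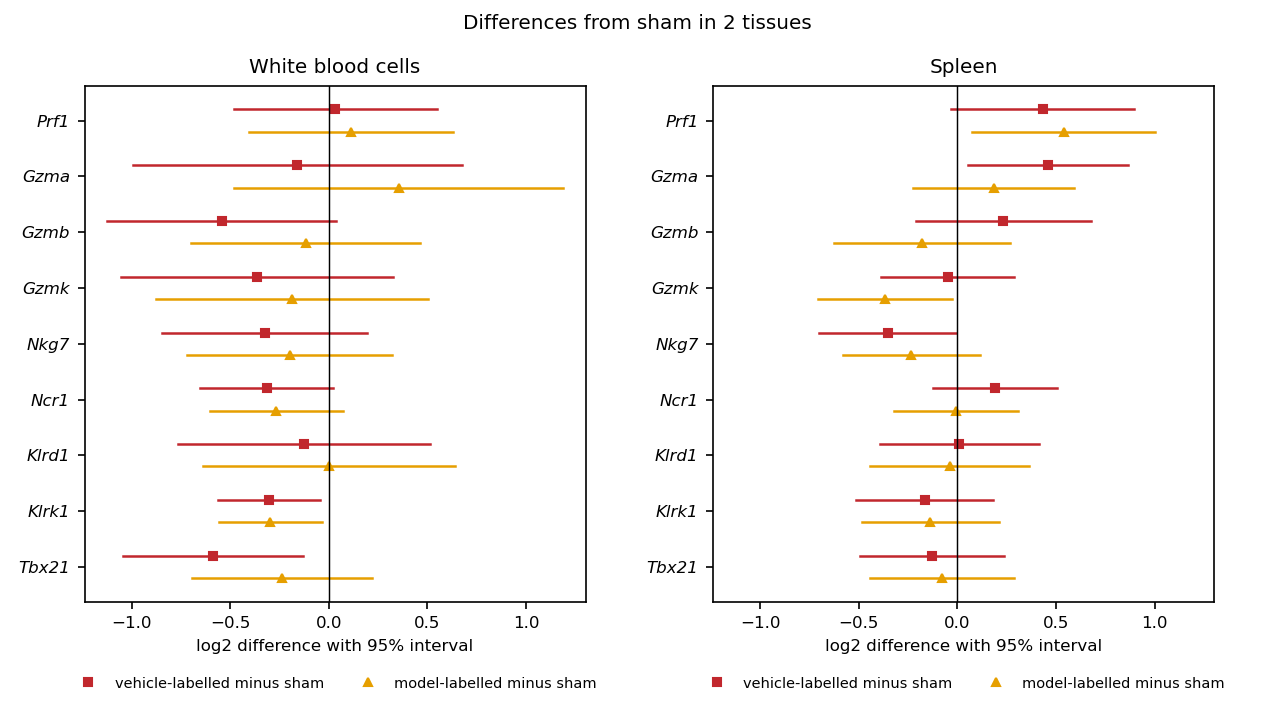
Differences from sham of vehicle-labelled rats (squares) and model-labelled rats (triangles) for the 9 genes in white blood cells and spleen, in log2 units with unadjusted 95% intervals, 3 arrays a group. Most intervals include 0, and in white blood cells the vehicle-labelled differences run from -0.59 for Tbx21 to 0.03 for Prf1.

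Single arrays moved these medians in white blood cells, and in 2 of the comparisons turned their sign, although 0 of 9 genes were called whichever array was left out (limma). Without sham rat 3, all 9 genes were below 0 in vehicle-labelled minus sham, with a median of -0.53 and a range of -0.85 (Gzmb) to -0.20 (Prf1). The lowest adjusted p was then 0.0783, for Tbx21 at -0.82 (limma). Without sham rat 4 the median was -0.17, with 6 of 9 below 0, and without vehicle-labelled rat 2 it was -0.18, with 7 of 9 below 0. Model-labelled minus sham had 9 of 9 below 0 without sham rat 3, with a median of -0.39 and a lowest adjusted p of 0.711 for Klrk1 at -0.36 (limma). Its median was 0.02 without sham rat 4, with 4 of 9 below 0, and 0.09 without model-labelled rat 2, with 3 of 9 below 0. It was -0.05 without sham rat 5 and -0.33 without model-labelled rat 3. Vehicle-labelled minus model-labelled had a median of 0.06 with 3 of 9 below 0 without model-labelled rat 3, and of 0.00 with 4 of 9 below 0 without vehicle-labelled rat 2. It was -0.37 without model-labelled rat 2, -0.30 without vehicle-labelled rat 5 and -0.21 without vehicle-labelled rat 4.

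In spleen the counts were again 0 of 9 in each comparison (limma). For vehicle-labelled minus sham 0.0483% of all genes were called, and Gzma and Nkg7, 2 of the 9, had an unadjusted p under 0.05 (9.35% of all genes), in opposite directions. For model-labelled minus sham 0.0414% were called, and Prf1 and Gzmk, 2 of the 9, had an unadjusted p under 0.05 (9.5% of all genes), again in opposite directions. For vehicle-labelled minus model-labelled 0% were called, and 0 of the 9 genes had an unadjusted p under 0.05 (12.9% of all genes). The median differences were 0.01, -0.08 and 0.05, against 0.04, 0.07 and -0.02 over all genes. None of these 4 genes had a low unadjusted p in both comparisons with sham.

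In brain, the tissue of the occlusion, the counts were also 0 of 9 (limma), where 0.0483% of all genes were called in vehicle-labelled minus sham, 1.16% in model-labelled minus sham and 0.0551% in vehicle-labelled minus model-labelled. Gzmk, described above, was the 1 gene with an unadjusted p under 0.05, in vehicle-labelled minus sham (9.33% of all genes) and in vehicle-labelled minus model-labelled (14.3%), and 0 of the 9 had one in model-labelled minus sham (14.4%). The differences from sham ran from -0.28 (Gzmk) to 0.30 (Nkg7) for vehicle-labelled rats and from -0.09 (Tbx21) to 0.22 (Klrk1) for model-labelled rats.

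Whether a group's difference from sham was unlike in white blood cells and in spleen was tested as an interaction over all 27 arrays. For vehicle-labelled minus sham 0 of 9 genes were called (limma; 0.772% of all genes), and 1 had an unadjusted p under 0.05 (11.3%). That gene was Ncr1, with a difference of differences of -0.51 ± 0.22 (SE; limma, adjusted p = 0.391). For Gzmb it was -0.78 ± 0.38 (SE; limma, adjusted p = 0.443), white blood cells standing at -0.54 and spleen at 0.23. For model-labelled minus sham 0 of 9 were called (limma; 0% of all genes), and 0 had an unadjusted p under 0.05 (5.94%).

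The wider cytotoxic programme gave few calls between groups. Of its 84 measured genes, 1 rose and 1 fell in vehicle-labelled minus sham white blood cells (1.58% and 0.427% of all genes), a share near that over all genes, where the median was -0.11 against -0.06 over all genes. The gene that rose was Ctsc, the protease that activates granzymes and is also made by neutrophils, at 0.82 ± 0.14 (SE; limma, adjusted p = 0.00589). The gene that fell was Crtam, an adhesion receptor of activated natural killer and CD8 T cells, at -0.57 ± 0.13 (SE; limma, adjusted p = 0.0411). Crtam stood at a like -0.58 ± 0.13 in model-labelled minus sham but did not pass there (limma, adjusted p = 0.237), and 0 of 84 passed in that comparison. In vehicle-labelled minus model-labelled white blood cells 1 of 84 fell (0.296% of all genes), the T cell factor Tcf7, at -0.81 ± 0.17 (SE; limma, adjusted p = 0.0321). In spleen 0 of 84 were called in each of the 3 comparisons.

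Markers of other cell types differed between the white blood cell preparations of the groups. In vehicle-labelled minus sham 10 of 11 erythroid markers rose, with a median of 2.66, and 7 of 14 neutrophil markers rose, including Ngp at 3.64 ± 0.23 and Lcn2 at 3.45 ± 0.22, both granule proteins of immature neutrophils. Of all genes 1.58% rose in that comparison. Of 14 T cell markers 1 fell, Cd6 at -0.66 ± 0.15, and the median was -0.27, against -0.06 over all genes. B cell markers had a median of 0.46 with 0 of 9 called, monocyte and macrophage markers 0.03 with 0 of 11 called, and platelet markers 0.03 with 0 of 4 called. In vehicle-labelled minus model-labelled 11 of 11 erythroid and 4 of 14 neutrophil markers rose (1.26% of all genes). In model-labelled minus sham 0 genes of any of these lists were called.

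The mean log2 value of the erythroid markers ran from 9.16 to 10.1 in vehicle-labelled, from 7.71 to 7.83 in model-labelled and from 7.01 to 7.68 in sham white blood cells. That of the neutrophil markers ran from 6.96 to 7.46 in vehicle-labelled, from 5.96 to 6.47 in model-labelled and from 5.75 to 6.11 in sham white blood cells. T cell markers overlapped, from 7.84 to 8.40 in vehicle-labelled, from 8.36 to 8.68 in model-labelled and from 8.13 to 8.74 in sham white blood cells. So did the mean of the 9 cytotoxic genes, from 7.68 to 8.11 in vehicle-labelled, from 7.71 to 8.49 in model-labelled and from 7.69 to 8.54 in sham white blood cells. The part of these other cells in the values of the cytotoxic genes was not tested.

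**Figure D4:**
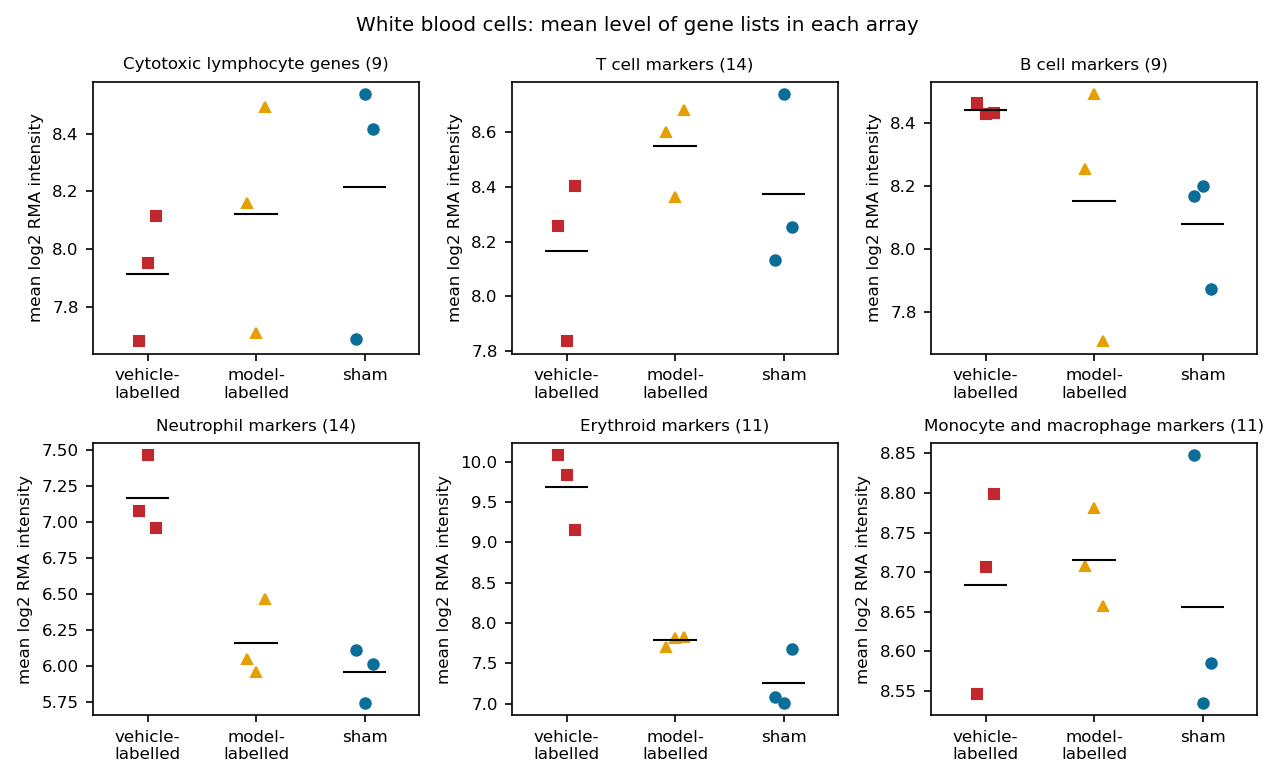
Mean log2 intensity of the 9 cytotoxic genes and of marker lists of other cell types on each white blood cell array, by group. Each point is 1 array, and the vertical axes differ between panels. In white blood cells the erythroid means of vehicle-labelled rats start at 9.16, above the highest sham mean of 7.68, while the means of the cytotoxic genes overlap between groups.

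In white blood cells the 9 genes varied widely between rats of the same group. The residual SD within groups had a median of 0.399 over the 9 genes in white blood cells, against 0.161 over all genes, and ran from 0.125 for Klrk1 to 0.678 for Gzma. In spleen the median was 0.228, against 0.180 over all genes, and in brain 0.180, against 0.185. The white blood cell arrays of a rat stood on the same side of the mean for most of the 9 genes. Sham rats 4 and 5 were above the tissue mean for 9 of 9 genes and model-labelled rat 3 for 8 of 9, whereas vehicle-labelled rat 2 and model-labelled rat 2 were below it for 9 of 9. Vehicle-labelled rat 4 was below it for 8 of 9 genes and sham rat 3 for 7 of 9. Once each array was centred on its own median, these became 7 of 9 and 9 of 9. Rats low on most of the 9 genes were thus found in every group.

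Gene pairs show the same alignment. Over the 9 white blood cell arrays, 29 of 36 pairs among the 9 genes correlated at r above 0.5, compared with 16.1% of all gene pairs, and the median r was 0.758. The pair most alike was Gzmk and Nkg7 (r = 0.935) and the least alike Ncr1 and Klrd1 (r = 0.149). With group means taken out, 32 of 36 pairs exceeded 0.5 (20.2% of all gene pairs). Leaving out 1 array at a time gave 27 pairs (without sham rat 4) to 35 pairs (without sham rat 3). In spleen 8 of 36 pairs exceeded 0.5 (16.4% of all gene pairs) with a median r of 0.283, and in brain 4 of 36 (13.9%) with a median of 0.058. These are descriptions over 9 arrays whose genes share each array's RNA sample, its cell composition and its normalization.

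The order of the rats was not the same in blood and in spleen. The mean over the 9 genes in white blood cells was highest in sham rat 4 (8.54), model-labelled rat 3 (8.49) and sham rat 5 (8.42), whose spleens read 6.88, 6.65 and 6.67. It was lowest in vehicle-labelled rat 2 (7.68), sham rat 3 (7.69) and model-labelled rat 2 (7.71), whose spleens read 6.95, 6.76 and 6.81. The highest spleen means were those of vehicle-labelled rats 5 (7.0) and 2 (6.95), and the lowest that of vehicle-labelled rat 4 (6.57). With each array centred on its own median, the spleens of sham rat 4 and vehicle-labelled rat 2 were above the tissue mean for 7 of 9 genes each, and that of model-labelled rat 2 was below it for 8 of 9.

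**Figure D5:**
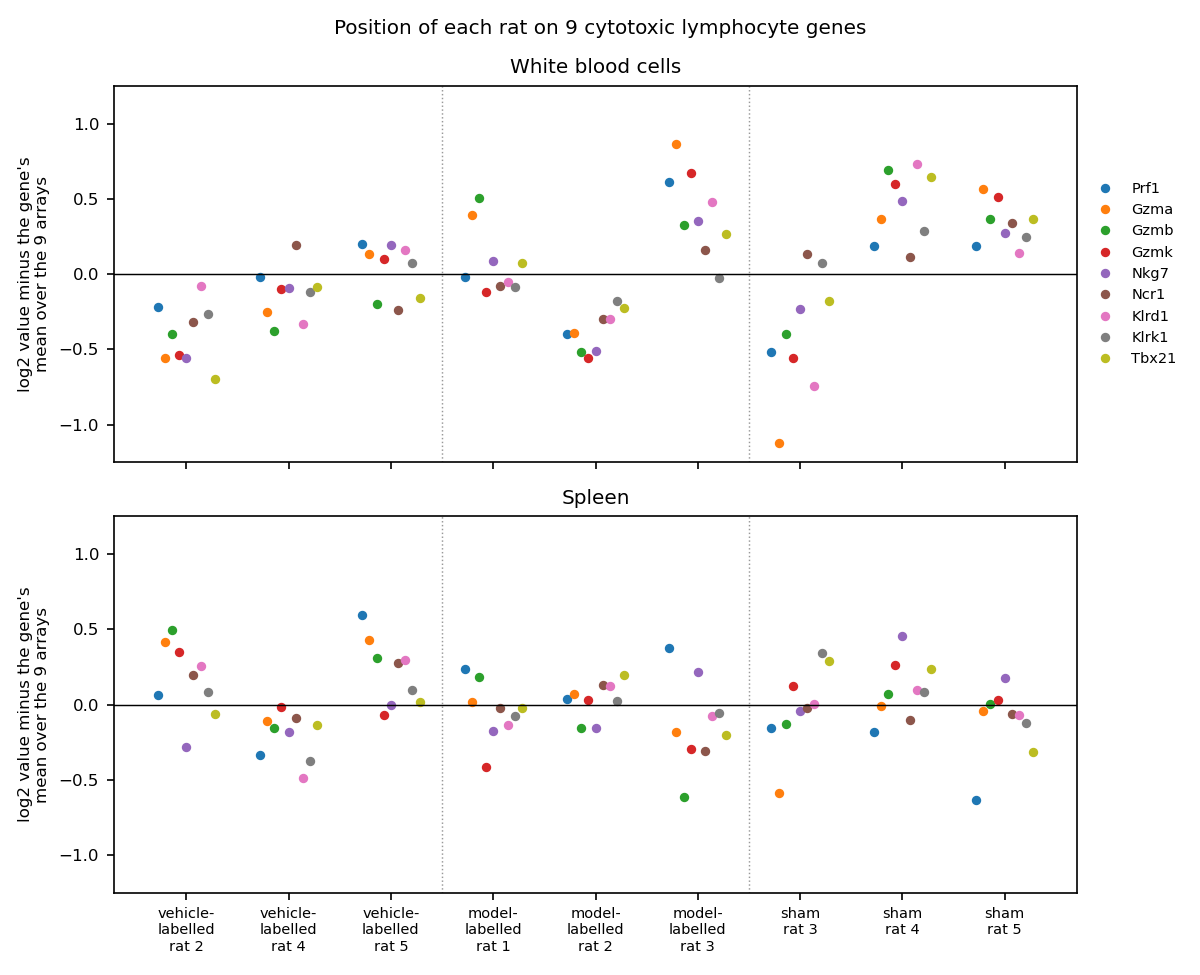
Position of each rat on the 9 genes, as the log2 value minus the gene's mean over the 9 arrays of that tissue, for white blood cells and spleen; each point is 1 gene on 1 array. In white blood cells sham rats 4 and 5 have all 9 genes above 0 and vehicle-labelled rat 2 and model-labelled rat 2 have all 9 below. In spleen sham rat 4 has 6 of the 9 genes above 0, sham rat 5 has 3, and vehicle-labelled rat 2 and model-labelled rat 2 have 7 each.

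Each gene was also set against the mean of the other 8 over the 18 white blood cell and spleen arrays, centred within tissue. Gzmk followed the others most closely (r = 0.849), then Klrd1 (0.819) and Gzma (0.792), and Ncr1 least (0.533). Klrd1 followed in both tissues, with r = 0.813 in white blood cells and 0.880 in spleen, and Gzmb (0.861 and 0.541), Klrk1 (0.654 and 0.523) and Ncr1 (0.513 and 0.696) did so less closely. Nkg7 followed in white blood cells (0.940) but not in spleen (-0.211).

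Other genes were ranked by their correlation with the mean of the 9 over the same 18 arrays, leaving out LOC and RGD placeholder symbols. The 6 highest were Faslg (r = 0.903), Gfi1 (0.825), Kctd18 (0.819), Gzmm (0.809), Lag3 (0.791) and Trpm2 (0.789). Among them, Faslg encodes Fas ligand, the membrane death ligand of cytotoxic lymphocytes, Gzmm granzyme M, and Lag3 an inhibitory receptor of activated T and natural killer cells. Only Faslg and Gzmm were on the cytotoxic lists used here, while Gfi1, Kctd18, Lag3 and Trpm2 were not. In white blood cells Faslg read 6.13, 6.44 and 6.65 in vehicle-labelled rats, with 6.70, 6.17 and 7.39 in model-labelled rats and 5.51, 7.18 and 7.18 in sham rats. Its high arrays were those of sham rats 4 and 5 and model-labelled rat 3, and its lowest that of sham rat 3. Within white blood cells alone its r was 0.945, and within spleen 0.679. Leaving out 1 array at a time gave Faslg an r of 0.882 to 0.921. It was picked for its high r over these same arrays, so that range is no separate support. Lag3, at 0.945 in white blood cells, stood at 0.157 in spleen, and Gfi1 stood at 0.888 and 0.347.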

How the data were processed

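RNA of each sample was read on an Affymetrix rat Gene 1.0 array. The table of 27596 probes by 27 arrays was deposited after RMA, per the submitters' processing notes, in a version not given in the sources used here. The deposited values are taken as log2 intensities from their range, since no label states the scale or whether tissues were normalized together. By the platform annotation 15310 probes had 1 symbol, 323 several and 11963 none. The brightest single-symbol probe over 27 arrays stood for a gene, which left 14506 genes. Probe positions are not given here.

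Groups and numbers came from the sample titles. No label gives a hybridization batch. The p-values rest on the spread between rats within groups, moderated across genes. That spread was pooled over the 3 groups of a tissue, or over all 27 arrays for tissue contrasts and interactions. The arrays of a tissue, 9 each, were fitted with limma 3.58.1 under R 4.3.3 (a mean per group, moderated 2-sided tests), and tissue contrasts and interactions used all 27 arrays. Calls are at a Benjamini-Hochberg adjusted p under 0.05 over all genes, and intervals are 95%, unadjusted. The code was tested on simulated data.

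The 9 genes, the related lists and the marker lists (T cell, B cell, neutrophil, monocyte and macrophage, erythroid, platelet) were chosen with earlier results of these data known. Other named genes were at most 4 called genes a list and comparison with the smallest p, and genes that complete a count. The 6 genes most correlated with the 9, placeholder symbols left out, were also named. Tissue contrasts within vehicle-labelled and model-labelled rats were added after seeing the data.

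Some replicate numbers recur between groups without marking the same rat. Residuals of arrays with the same number in 2 groups of a tissue correlated at -0.474 to 0.377, 2 of 12 above 0.1. The number was therefore not used as a block. Residuals of the same rat in 2 tissues, linked by the titles, correlated at -0.058 to 0.517, 15 of 27 above 0.1. The reported tissue contrasts and interactions nevertheless treated these arrays as independent. With the rat as a block, 9 of the 9 genes again passed in each tissue comparison of sham rats (limma). Alternatives changed the normalization, the dim filter, the probes, the variance model, array weights, the arrays fitted, the threshold, the replicate block and each array in turn.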

Additional observations from a re-analysis of the deposited data

How the results depend on the processing

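For the 9 cytotoxic genes, the count called between groups stayed at 0 over 108 combinations of comparison and alternative setting. It also stayed at 0 over 81 combinations of comparison and left-out array. The interaction counts stayed at 0 over 14 and 54 such combinations. No single gene of the 9 was called between groups within a tissue in 945 combinations of gene, comparison and setting. The same held for 729 combinations of gene, comparison and left-out array. A single fit supplies many of these combinations, so their number is not a number of fits. The uncalled differences changed sign in 23 of the 945 and in 66 of the 729. Most of the settings alter the test and not the difference itself. Leaving out an array of the group outside a comparison does not alter the difference either. Many of these combinations could therefore not change sign, and the counts do not measure how stable the signs are. Some counts of 0 were fixed in advance. A fold cut can only remove calls, and the dim filter kept 1 of the 9 genes in brain and 8 in spleen. With the replicate block the count of the 9 genes was again 0 in every comparison within a tissue, while all genes called were 254 for vehicle-labelled minus sham and 215 for vehicle-labelled minus model-labelled white blood cells. With the rat as a block the interactions gave 151 and 2 calls over all genes. A number shared by 2 groups does not mark the same rat, and the replicate block changed no call of the 9 genes between groups.

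Counts between tissues moved by over 1.5 times in 1 of 63 combinations of comparison and setting. In that combination a fold of at least 2 left 4 genes in place of 8 as higher in vehicle-labelled white blood cells than spleen. Leaving out 1 array gave 7 to 9 there. In sham rats the lowest counts over all settings were 7, 7 and 6 of the 9 genes. These are for white blood cells minus brain, spleen minus brain and white blood cells minus spleen. For white blood cells minus brain the 7 came from the dim filter, which took genes of the 9 out before testing. A fold of at least 2 left out no gene there.

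Counts over all genes depended more on the setting. Over settings other than leaving out an array they ran from 131 to 442 (291 as reported) for vehicle-labelled minus sham white blood cells, from 0 to 16 (0) for model-labelled minus sham and from 109 to 555 (226) for vehicle-labelled minus model-labelled. In spleen they ran from 0 to 29 (7), from 0 to 123 (6) and from 0 to 107 (0), and in brain from 0 to 369 (7), from 113 to 573 (168) and from 0 to 346 (8). Leaving out 1 array gave 162 to 350, 0 to 3 and 108 to 273 in white blood cells, 0 to 16, 0 to 21 and 0 to 317 in spleen, and 0 to 106, 70 to 256 and 0 to 40 in brain. The 317 came without vehicle-labelled rat 5 and the 106 without vehicle-labelled rat 2. With 3 arrays a group, the number of arrays limits the precision, and dim probes limit what brain can show.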

Other observations

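In brain, where the 9 cytotoxic genes gave no call, a few genes of the related lists did. In model-labelled minus sham 4 of 84 rose, where 1.08% of all genes did: Ccl3, a chemokine that is also made by microglia, at 4.52 ± 0.71, Nfil3, a transcription factor of the natural killer lineage that other cells use too, at 1.77 ± 0.14, Srgn, the proteoglycan core of granules in many blood cells, at 1.04 ± 0.15, and Ets1, a transcription factor of lymphocytes and endothelium, at 0.69 ± 0.13 (SE; limma, adjusted p = 0.0169, 0.00065, 0.0105 and 0.0356). Nfil3 averaged 6.14 in vehicle-labelled, 6.76 in model-labelled and 4.99 in sham brains, and it was the 1 gene of the 84 that rose in vehicle-labelled minus sham brains (0.0483% of all genes), at 1.15 ± 0.14 (SE; limma, adjusted p = 0.03). In model-labelled minus sham brains 1 of 11 monocyte and macrophage markers rose, Cd14 at 2.26 ± 0.32, and 1 of 4 platelet markers, Itgb3 at 0.77 ± 0.15 (SE; limma, adjusted p = 0.00901 and 0.0471), with list medians of 0.28 and 0.05. Neutrophil markers there had a median of 0.38 with 0 of 14 called, T cell markers 0.06 with 0 of 14, B cell markers 0.22 with 0 of 9 and erythroid markers -0.01 with 0 of 11, against 0.03 over all genes. In vehicle-labelled minus sham brains 0 genes of these lists were called. Which cells of the brain gave these values was not tested.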
